A study of Mus musculus with 8 samples.

Results

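Iron and haem handling was followed through 10 genes, chosen by name from the deposited expression table: Hmox1, Hmox2 and Blvrb of haem breakdown, Alas1 and Fech of haem synthesis, the ferritin chains Fth1 and Ftl1, the transferrin receptor Tfrc, and the iron regulatory proteins Ireb2 and Aco1. They are 10 of the 48709 genes in that table, and 103 of the 204362 introns listed in all 8 intron tables carry their names. The study sequenced poly(A) RNA from murine bone marrow, as 8 libraries in 5 groups. Ly6Chi monocytes with a knockout of Upf2 (2 libraries, called the knockout here) were set against control Ly6Chi monocytes (2). The others were MDP (1), cMoP (2) and Ly6Clo monocytes (1), which with control Ly6Chi run in the order MDP, cMoP, Ly6Chi, Ly6Clo.

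MDP and cMoP are the field's names for the macrophage and dendritic cell progenitor and the common monocyte progenitor, and Ly6C is a surface protein that divides classical from patrolling monocytes. Upf2 is a core component of nonsense-mediated decay, which degrades messenger RNAs with early stop codons. All groups other than the knockout are labelled wild type and untreated, and the labels call the cells both primary and a monocytic line. The expression columns of cMoP and control Ly6Chi are also labelled FL_FL, while those of MDP, Ly6Clo and the knockout are not. Comparisons of MDP or Ly6Clo with cMoP or Ly6Chi cross that difference in label, and its part was not tested. The sources used here do not give strain, age, the way Upf2 was deleted or any pooling of animals. The labels do not say whether replicates are separate animals. The p-values therefore cover only the spread between libraries, which may be technical.

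Cells take up iron as transferrin through the transferrin receptor, store it in a ferritin shell of heavy (Fth1) and light (Ftl1) chains, and build it into haem in mitochondria. Haem oxygenases open the haem ring and release iron, carbon monoxide and biliverdin, which biliverdin reductases turn into bilirubin. Macrophages are known for recycling iron from red cells by this route. When iron is scarce, the iron regulatory proteins bind hairpins called iron-responsive elements, which holds back translation of ferritin messages and protects the Tfrc message from decay.

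3 of the 10 genes were found to carry such a hairpin in their annotated untranslated regions, with Fech not covered by that count. The sequences are shown because they are the element type that the regulatory proteins are known to bind. The search looked on the sense strand for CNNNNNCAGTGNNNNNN, with a base other than G after CAGTG and the flanking stretches of 5 bases able to pair. Each is given in GENCODE M21 (GRCm38), 5′ to 3′ on the strand of the gene, with capitals for the bulged C and the loop.

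Fth1, 5′ untranslated region, chr19:9982732-9982760, plus strand: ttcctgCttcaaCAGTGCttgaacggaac

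Ftl1, 5′ untranslated region, chr7:45459779-45459807, minus strand: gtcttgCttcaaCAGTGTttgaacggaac

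Tfrc, 3′ untranslated region, chr16:32631219-32631247, plus strand: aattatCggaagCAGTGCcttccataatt

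Tfrc, 3′ untranslated region, chr16:32631598-32631626, plus strand: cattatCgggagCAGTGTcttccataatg

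Tfrc, 3′ untranslated region, chr16:32631663-32631691, plus strand: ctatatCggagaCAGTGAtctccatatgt

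Tfrc, 3′ untranslated region, chr16:32631710-32631738, plus strand: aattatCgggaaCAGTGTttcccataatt

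The ferritin hairpins lie near the start of the message and the 4 Tfrc hairpins near its end. The same pattern was present in an untranslated region of 123 of 21901 protein-coding genes (0.562%). A match is a description of the letters, not a measured binding site.

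Expression is given in TPM (transcripts per 1000000), the unit of the deposited values, which is per transcript length and can be compared between genes. Each comparison was tested with limma on log2(TPM + 1) over 13126 genes, and a gene was called at a Benjamini-Hochberg adjusted p under 0.05. The log2 change of the median gene was -0.12 in the knockout against Ly6Chi, 0.19 in Ly6Chi against cMoP, 0.04 in Ly6Clo against Ly6Chi, -0.28 in cMoP against MDP and -0.14 in Ly6Chi against MDP. Log2 changes in expression below are relative to that gene, while p-values are those before this shift. In bulk RNA, fewer cells of a type and less RNA per cell cannot be told apart.

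The libraries held 28925018 to 37833159 spliced reads. Both knockout libraries and both cMoP libraries had a stronger lean of reads to the 3′ end than the others, and cMoP replicate 2 had the strongest. The median log2 ratio of spliced reads at the last over the first introns of a gene (1 in 3 of its introns at each end) was 0.75 and 0.53 in the knockout, 0.32 in MDP, 0.55 and 0.81 in the cMoP pair, 0.31 and 0.37 in the Ly6Chi pair and 0.33 in Ly6Clo. Of the stage markers, Mpo, a granule enzyme of progenitors, stood at 12416.5 and 10338.1 TPM in cMoP against 77.22 and 97.29 TPM in Ly6Chi, and Ly6c2 at 62.76 TPM in Ly6Clo against 3438.6 and 4056.61 TPM in Ly6Chi. The summed level of 4 MDP markers did not single out the MDP library, at 865 TPM in MDP and 1643 TPM in Ly6Clo. Most of the Ly6Clo sum was Csf1r, at 1629.31 TPM in Ly6Clo against 162.88 TPM in MDP. Flt3 and Cd34 went the other way and were highest in MDP, at 197.45 and 444.35 TPM, against 9.46 and 3.56 TPM in Ly6Clo. Upf2, the targeted gene, had 20.37 and 22.45 TPM in the knockout, against 20.15 and 18.19 TPM in control Ly6Chi. Its exons 2 and 3 were joined by 10 and 13 reads in the knockout libraries, against 41 and 45 reads in the Ly6Chi controls, and by 16 reads in cMoP replicate 2. Exons 4 and 5 were joined by 49 and 95 reads in the knockout, against 90 and 101 reads in Ly6Chi. Whether these reads mark the deletion was not tested.

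Hmox1, the inducible haem oxygenase, was nearly silent in the progenitors and abundant in the monocytes. It had 131.76 and 111.15 TPM in the knockout, 2.58 TPM in MDP, 3.29 and 2.33 TPM in cMoP, 81.7 and 92.86 TPM in Ly6Chi and 194.38 TPM in Ly6Clo. Neither progenitor group overlapped any monocyte library, and the Ly6Clo library was the highest of all. Its mean in Ly6Chi was 31.1 times that in cMoP, a log2 change of 4.35 with a standard error of 0.19 (limma, adjusted p = 0.000104). Against MDP the Ly6Chi change was 4.76 with a standard error of 0.23 (limma, adjusted p = 0.000247). Both calls held in every alternative setting run.

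**Figure D1:**
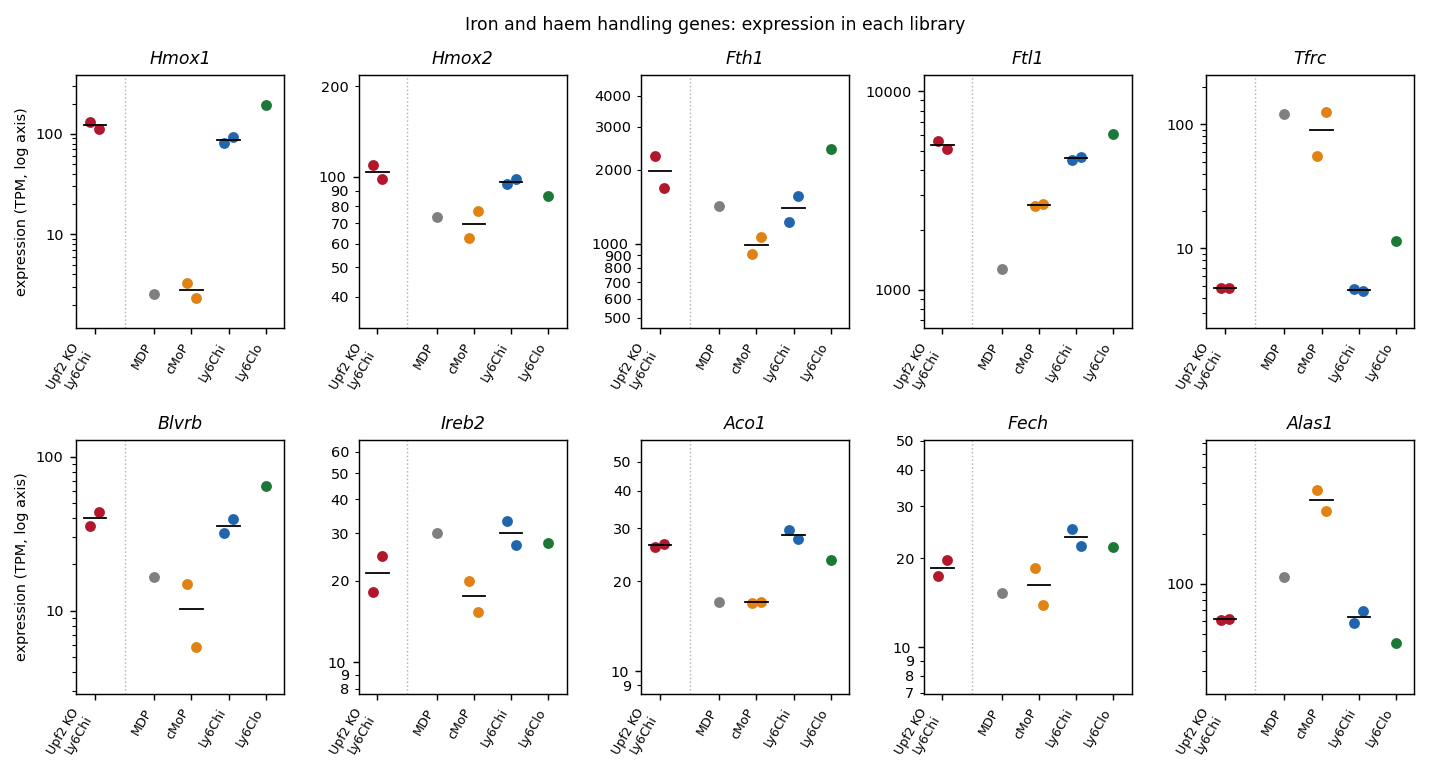
Expression of the 10 genes in TPM on a log axis, 1 point for each library, with a black line at the mean where a group has 2 libraries. Hmox1 and Tfrc run in opposite directions between progenitors and monocytes, and Alas1 peaks in cMoP.

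The constitutive haem oxygenase, Hmox2, changed little beside it. It had 109.38 and 98.14 TPM in the knockout, 73.45 TPM in MDP, 62.82 and 76.96 TPM in cMoP, 94.74 and 98.23 TPM in Ly6Chi and 86.57 TPM in Ly6Clo. The cMoP and Ly6Chi libraries did not overlap, and Hmox2 rose in Ly6Chi against cMoP by a log2 change of 0.27 with a standard error of 0.14 (limma, adjusted p = 0.0358). That call was held in 3 of 12 alternatives and had an adjusted p of 0.651 with median centring. It was also lost without either Ly6Chi library (adjusted p = 0.144 and 0.171 without replicates 1 and 2) or either knockout library (0.068 and 0.0673, limma). In the knockout Hmox1 stood above Hmox2, by 1.20 and 1.13 times. The order of both oxygenases turned over along the stages: Hmox2 exceeded Hmox1 28.5 times in MDP, 19.1 and 33.0 times in the cMoP pair and 1.16 and 1.06 times in the Ly6Chi pair, whereas in Ly6Clo Hmox1 exceeded Hmox2 2.25 times.

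Blvrb, the biliverdin reductase that also acts as a flavin reductase, had 35.73 and 44 TPM in the knockout, 16.45 TPM in MDP, 14.84 and 5.81 TPM in cMoP, 31.95 and 39.19 TPM in Ly6Chi and 64.26 TPM in Ly6Clo. The progenitor libraries lay below all monocyte libraries, and the cMoP replicates lay far apart. Blvrb rose in Ly6Chi against cMoP by a log2 change of 1.61 with a standard error of 0.40 (limma, adjusted p = 0.0121). That call held in 10 of 12 alternatives and was lost, among others, without Ly6Chi replicate 2. Blvra, the main reductase of biliverdin, was the more abundant of both reductases in every library other than Ly6Clo, where its level was 0.677 of that of Blvrb.

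Ferritin messages were among the most abundant of the 10 genes throughout, and the light chain was called in 3 comparisons while the heavy chain was called in 0. Ftl1 had 5600.42 and 5102.19 TPM in the knockout, 1278.73 TPM in MDP, 2643.63 and 2704.34 TPM in cMoP, 4487.09 and 4693.68 TPM in Ly6Chi and 6079.32 TPM in Ly6Clo. Each stage lay above the one before with no overlap. Ftl1 rose by 1.35 in cMoP against MDP and by 0.58 in Ly6Chi against cMoP on the log2 scale, with standard errors of 0.13 and 0.10 (limma, adjusted p = 0.0159 and 0.00229). With median centring the second of these had an adjusted p of 0.124 (limma). The first held in 8 of 11 alternatives, and was lost without Ly6Chi replicate 1 or 2 and with the compared groups only. Over both steps, Ly6Chi against MDP, the log2 change was 1.98 with a standard error of 0.13 (limma, adjusted p = 0.000478).

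The heavy chain, Fth1, which carries the ferroxidase activity, had 2280.54 and 1685.55 TPM in the knockout, 1423.18 TPM in MDP, 908.61 and 1070.59 TPM in cMoP, 1229.04 and 1567.79 TPM in Ly6Chi and 2442.32 TPM in Ly6Clo. The MDP value lay within the Ly6Chi range, and no comparison called Fth1. The Ftl1 to Fth1 ratio within a library was 2.46 and 3.03 in the knockout, 0.899 in MDP, 2.91 and 2.53 in the cMoP pair, 3.65 and 2.99 in the Ly6Chi pair and 2.49 in Ly6Clo. MDP was the one group in which heavy chain messages outnumbered light chain messages. Both chains together made up 0.788% and 0.679% of all TPM in the knockout, 0.270% in MDP, 0.355% and 0.377% in the cMoP pair, 0.572% and 0.626% in the Ly6Chi pair and 0.852% in Ly6Clo. Ferritin has near-identical copies, of which Ftl1-ps1 was listed at 14.27 to 62.54 TPM. How reads were shared between the copies was not tested, and the size of this uncertainty in the ferritin values is not known.

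Tfrc, the receptor that takes up transferrin, was abundant in the progenitors and low in the monocytes. It had 4.81 and 4.79 TPM in the knockout, 121.88 TPM in MDP, 55.41 and 125.73 TPM in cMoP, 4.69 and 4.54 TPM in Ly6Chi and 11.47 TPM in Ly6Clo. All progenitor libraries lay far above all monocyte libraries, and the MDP value fell within the wide cMoP range. The mean was 19.6 times higher in cMoP than in Ly6Chi, and Tfrc fell in Ly6Chi by a log2 change of -4.11 with a standard error of 0.37 (limma, adjusted p = 0.000857). Against MDP the Ly6Chi change was -4.31 with a standard error of 0.45 (limma, adjusted p = 0.00136). Both calls held in every alternative run. Ly6Clo stood at 11.47 TPM, above both Ly6Chi libraries, but this difference was not called (log2 change 1.11, standard error 0.45, limma adjusted p = 0.166). It was called without cMoP replicate 1 or 2 (limma, adjusted p = 0.00628 and 0.00757). All groups share 1 estimate of the spread in this test, and the cMoP replicates of Tfrc are far apart. Tfrc in cMoP against MDP was not called (limma, adjusted p = 0.455), though without cMoP replicate 2 the adjusted p was 0.0321.

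**Figure D2:**
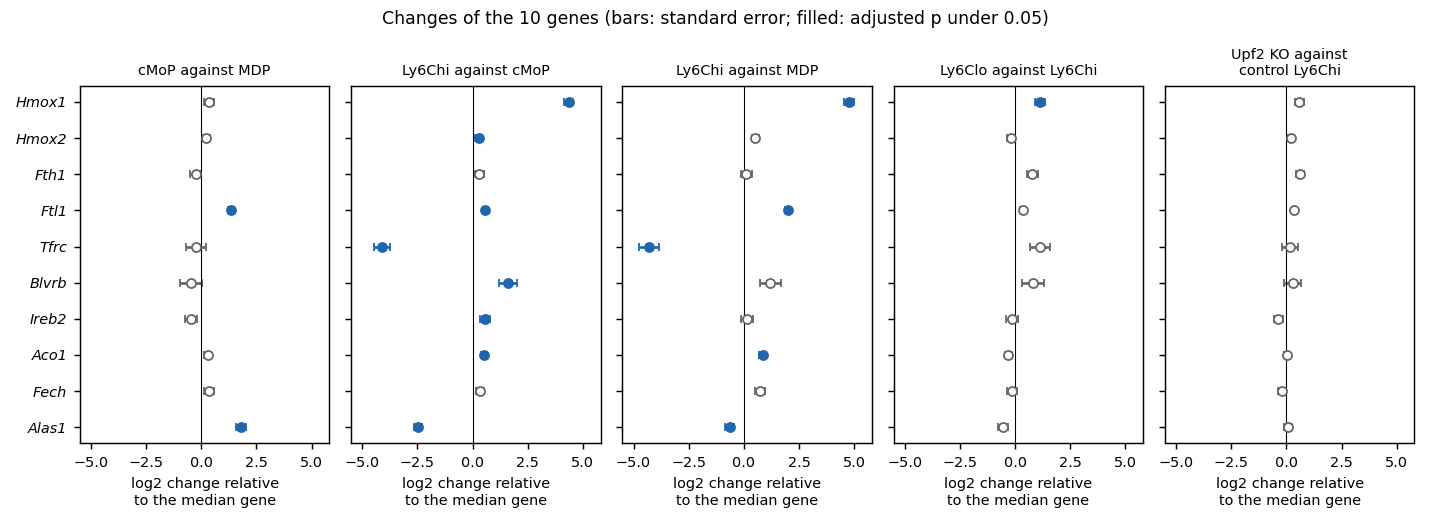
Log2 change of each gene relative to the median gene in 5 comparisons, with the standard error as a bar. Filled points passed an adjusted p under 0.05 in limma, and every point of the knockout panel is open.

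Alas1, the housekeeping first enzyme of haem synthesis, had its peak in cMoP. It had 61.19 and 61.62 TPM in the knockout, 110.2 TPM in MDP, 363.65 and 271.27 TPM in cMoP, 58.12 and 69.1 TPM in Ly6Chi and 44.24 TPM in Ly6Clo. The cMoP libraries lay above every other library. Alas1 rose in cMoP against MDP by a log2 change of 1.79 with a standard error of 0.22 (limma, adjusted p = 0.0277), and fell in Ly6Chi against cMoP by -2.49 with a standard error of 0.18 (limma, adjusted p = 0.000476). The rise was called in 6 of 11 alternatives. It was lost without either Ly6Chi library, without either knockout library and with the compared groups only. The fall was called in all 12 alternatives. Against MDP, Alas1 in Ly6Chi was lower by a log2 change of -0.65 with a standard error of 0.22 (limma, adjusted p = 0.0309). That call was lost without Ly6Chi replicate 1 or 2 (adjusted p = 0.139 and 0.0722) and without knockout replicate 1 or 2 (0.0672 and 0.0661, limma).

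Fech, which inserts iron into the ring in the last step of haem synthesis, did not follow Alas1. It had 17.38 and 19.72 TPM in the knockout, 15.24 TPM in MDP, 18.59 and 13.93 TPM in cMoP, 25.21 and 21.98 TPM in Ly6Chi and 21.88 TPM in Ly6Clo. Ly6Chi lay above cMoP without overlap, but the change was not called (log2 change 0.33, standard error 0.19, limma adjusted p = 0.0627). Without cMoP replicate 1 it had an adjusted p of 0.0147. Alas1 exceeded Fech 3.52 and 3.12 times in the knockout, 7.23 times in MDP, 19.6 and 19.5 times in the cMoP pair, 2.31 and 3.14 times in the Ly6Chi pair and 2.02 times in Ly6Clo.

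Both regulatory proteins were modest in level. Aco1, which is cytosolic aconitase when it holds an iron-sulphur cluster, had 26.04 and 26.58 TPM in the knockout, 16.99 TPM in MDP, 16.88 and 17.09 TPM in cMoP, 29.58 and 27.62 TPM in Ly6Chi and 23.56 TPM in Ly6Clo. The progenitors were close together and all lay below the monocytes. Aco1 rose in Ly6Chi against cMoP and against MDP by log2 changes of 0.52 and 0.86, with standard errors of 0.13 and 0.16 (limma, adjusted p = 0.00696 and 0.0173). Against cMoP the adjusted p was 0.0841 with median centring and 0.0782 and 0.0554 without Ly6Chi replicates 1 and 2. Against MDP it was 0.119 and 0.0927 without Ly6Chi replicates 1 and 2, and 0.0519 and 0.0518 without knockout replicates 1 and 2 (limma).

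Ireb2, which is degraded when iron is plentiful, had 18.26 and 24.66 TPM in the knockout, 30.03 TPM in MDP, 19.95 and 15.34 TPM in cMoP, 33.22 and 27.17 TPM in Ly6Chi and 27.72 TPM in Ly6Clo. The 4 libraries of the cMoP and the knockout were the lowest. Ireb2 was called in Ly6Chi against cMoP (log2 change 0.55, standard error 0.22, limma adjusted p = 0.0324), and in 6 of 12 alternatives. Among those that lost the call were median centring (limma, adjusted p = 0.0636) and the runs without cMoP replicate 2 or either Ly6Chi library. The lean of Ireb2 reads to the 3′ end differed along with its level. The same log2 ratio over its own introns was 1.04 and 0.48 in the knockout, 0.11 in MDP, 0.77 and 1.22 in the cMoP pair, 0.21 and 0.20 in the Ly6Chi pair and 0.04 in Ly6Clo. Its last introns had a mean of spliced reads, per 1000000 in the library, of 4.16 and 4.92 in the knockout, 5.59 in MDP, 4.35 and 2.83 in the cMoP pair, 6.37 and 5.32 in the Ly6Chi pair and 4.74 in Ly6Clo. At its first introns the mean was 2.01 and 3.51 in the knockout, 5.17 in MDP, 2.53 and 1.20 in the cMoP pair, 5.51 and 4.61 in the Ly6Chi pair and 4.59 in Ly6Clo. The part of the lean in the Ireb2 values was not tested.

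Over the stages, 8 of the 10 genes were called in Ly6Chi against cMoP, 6 higher and 2 lower, where 55.5% of all genes tested were called, 32.3% higher and 23.3% lower. In cMoP against MDP 2 were called, both higher, where 3.87% of all genes were, 1.35% higher and 2.52% lower. In Ly6Chi against MDP 3 were higher and 2 lower, where 43.8% of all genes were called, 18.2% higher and 25.6% lower. Those comparisons share libraries, and MDP and Ly6Clo have 1 library each, which is assumed to vary like the replicated groups. The median log2 change over the 10 genes was 0.62 in Ly6Chi against cMoP, beside 0.19 over all genes, and -0.04 in cMoP against MDP, beside -0.28, both before the shift.

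In Ly6Clo against Ly6Chi, 1 of the 10 genes was called, where 13% of all genes tested were, 5.9% higher and 7.12% lower. Hmox1 rose by a log2 change of 1.11 with a standard error of 0.23, and its Ly6Clo level was 2.23 times the Ly6Chi mean (limma, adjusted p = 0.0274). The call was lost without Ly6Chi replicate 1 or 2 (adjusted p = 0.172 and 0.119) and without knockout replicate 1 or 2 (0.072 and 0.0702, limma). Fth1, Ftl1, Blvrb and Tfrc were also above both Ly6Chi libraries but were not called. Macrophage markers were higher in the same library. Their summed level over 12 genes was 1078 TPM in Ly6Clo against 167 and 165 TPM in Ly6Chi, and C1qb stood at 258.03 TPM in Ly6Clo against 2.66 and 2.09 TPM in Ly6Chi. The macrophage genes Timd4 and Cd5l were at 0.08 and 0.88 TPM in Ly6Clo. Summed neutrophil markers were 4958 TPM in Ly6Clo against 1296 and 1686 TPM in Ly6Chi, and summed erythroid markers 322 TPM in Ly6Clo against 36.3 and 191 TPM in Ly6Chi. Their part in the Hmox1 level was not tested.

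In the knockout, 0 of the 10 genes were called by limma, where 0.00762% of all genes tested were, and 0 were called under every alternative run. At an unadjusted p under 0.05 there were 2, Hmox1 and Fth1, each with an adjusted p of 0.342, beside 14.6% of all genes at that unadjusted level. Hmox1 had 131.76 and 111.15 TPM in the knockout against 81.7 and 92.86 TPM in Ly6Chi, a log2 change of 0.59 with a standard error of 0.19. Fth1 had 2280.54 and 1685.55 TPM in the knockout against 1229.04 and 1567.79 TPM in Ly6Chi. Its log2 change was 0.62 with a standard error of 0.20. The knockout and Ly6Chi libraries did not overlap for Hmox1 and Fth1, which were picked by p-value. They did not overlap for Ftl1, Tfrc, Ireb2, Aco1 and Fech either, and they overlapped for Hmox2, Blvrb and Alas1. With 2 libraries against 2, such separation does not set a gene apart, and its share over all genes was not counted. Tfrc, at 4.81 and 4.79 TPM in the knockout against 4.69 and 4.54 TPM in Ly6Chi, had a log2 change of 0.17 with a standard error of 0.37.

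Other genes of the pathway were counted from 6 lists of 61 genes, 51 of them tested. In the knockout 0 were called by limma. In Ly6Chi against cMoP 13 were higher and 15 lower (54.9%), and in Ly6Clo against Ly6Chi 7 were higher and 2 lower (17.6%). In cMoP against MDP 1 was higher and 3 lower (7.84%), and in Ly6Chi against MDP 12 were higher and 17 lower (56.9%). These shares stand beside the same backgrounds of all genes as above.

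Of 9 tested genes of iron uptake, transport and export, 5 were higher and 1 lower in Ly6Clo against Ly6Chi. Of all genes tested, 5.9% were higher and 7.12% lower there. Hfe, which binds the transferrin receptors, had 488.43 TPM in Ly6Clo against 36.45 and 32.6 TPM in Ly6Chi (log2 change 3.75, standard error 0.25, limma adjusted p = 0.000814). Slc11a1, the phagosomal metal transporter, had 431.47 TPM in Ly6Clo, against 105.41 and 102.3 TPM in Ly6Chi and 1.6 and 0.41 TPM in cMoP. It was called in both steps, with log2 changes of 2.01 and 5.58 and standard errors of 0.36 and 0.30 (limma, adjusted p = 0.0193 and 0.000171). Slc40a1, the iron exporter, was low in all libraries, with 4.84 TPM in Ly6Clo against 0.61 and 0.76 TPM in Ly6Chi.

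Among 10 tested genes of haem synthesis, 2 were higher and 3 lower in Ly6Chi against cMoP, where 32.3% of all genes were higher and 23.3% lower. Alad, the second enzyme, fell with Alas1, at 6.82 and 7.91 TPM in Ly6Chi against 32.43 and 40.8 TPM in cMoP (log2 change -2.36, standard error 0.18, limma adjusted p = 0.000592). Slc25a38, the mitochondrial glycine carrier, rose in the same comparison by 1.20 with a standard error of 0.15 (limma, adjusted p = 0.00131). Alas2, the erythroid first enzyme, was at most 2.51 TPM in any library. Of 12 tested genes of iron-sulphur cluster assembly, 6 were lower and 1 higher in Ly6Chi against cMoP, beside 23.3% and 32.3% of all genes. Glrx5, a mitochondrial glutaredoxin of that pathway, had 38.99 and 39.38 TPM in Ly6Chi against 83.97 and 141.06 TPM in cMoP (log2 change -1.65, standard error 0.25, limma adjusted p = 0.00518).

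Of 8 tested genes of storage and control, 3 were higher and 1 lower in Ly6Chi against cMoP. Beside this list and those below, 32.3% of all genes were higher and 23.3% lower in that comparison. Bach1, a haem-sensing repressor of Hmox1, was among the higher ones, at 96.75 and 84.25 TPM in Ly6Chi against 9.65 and 5.19 TPM in cMoP (log2 change 3.30, standard error 0.31, limma adjusted p = 0.000688). Nfe2l2, an activator of Hmox1, had 94.76 and 97.89 TPM in Ly6Chi against 50.13 and 44.88 TPM in cMoP (log2 change 0.81, standard error 0.12, limma adjusted p = 0.00162). Of 6 tested genes of haem breakdown and transport, 2 were higher, Blvra and Lrp1, and 1 lower. Lrp1, the receptor for haem bound to haemopexin, had 234.61 and 238.44 TPM in Ly6Chi against 18.46 and 7.46 TPM in cMoP (log2 change 4.02, standard error 0.37, limma adjusted p = 0.00069). Of 6 tested antioxidant genes of the Nfe2l2 programme, 2 were higher, Gsr and Srxn1, and 2 lower.

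The 3 genes with the pattern most like that of Hmox1 over 8 libraries, by Pearson correlation of log2(TPM + 1), were Shtn1 (r = 0.998), Gm5150 (r = 0.997) and Casp1 (r = 0.996). For Tfrc they were Mtrr (r = 0.998), Aasdhppt (r = 0.995) and Fpgs (r = 0.994). These libraries fall into progenitors and monocytes, and the values describe that split.

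Intron retention was read from the deposited counts of reads across exon-intron boundaries and of spliced reads at each intron, and from the deposited retention ratio, the share of transcripts estimated to keep the intron. Of the 103 introns, 88 carried no mark of overlap with another feature and 45 had enough reads in every library to be tested: 14 of Ireb2, 12 of Aco1, 9 of Alas1, 6 of Fech, 2 of Tfrc and 2 of Blvrb. Hmox1, Hmox2, Fth1 and Ftl1 had 0 tested introns. With edgeR's quasi-likelihood test on boundary against spliced reads, 0 of the 45 were called in any of the 5 comparisons. The backgrounds over 48132 introns were 0.00208% in the knockout, 0.0145% in Ly6Chi against cMoP, 0% in Ly6Clo against Ly6Chi, 0% in cMoP against MDP and 0.00623% in Ly6Chi against MDP. At an unadjusted p under 0.05 there were 5, 5, 4, 1 and 4 in the same order, or 11.1%, 11.1%, 8.89%, 2.22% and 8.89%, beside 6.94%, 10.9%, 4.97%, 8.35% and 3.82% of all introns tested. For 3 of the 45, 1 each of Aco1, Alas1 and Blvrb, under 2% of the spliced reads joined the exact intron, so the test does not measure retention there.

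Among introns whose spliced reads reached 10 in all 8 libraries, the 5 highest mean retention ratios were those of introns 5, 6, 12 and 15 of the 18 of Tfrc and of intron 8 of Alas1. In both cMoP libraries the Alas1 intron was above the other 4. MDP was the highest library at introns 5, 6 and 12 of Tfrc, while at intron 15 Ly6Chi replicate 1 was higher, at 0.171. Intron 6 of Tfrc (chr16:32617200-32618217, between coding exons) had a ratio of 0.0215 and 0.0557 in the knockout, 0.284 in MDP, 0.0754 and 0.00852 in the cMoP pair, 0.114 and 0.163 in the Ly6Chi pair and 0.144 in Ly6Clo. Intron 5 (chr16:32616899-32617096) had 0 and 0.0625 in the knockout, 0.250 in MDP, 0.0703 and 0.0112 in the cMoP pair, 0.177 and 0.0694 in the Ly6Chi pair and 0.131 in Ly6Clo. Across 74311 introns of all genes with that depth the median ratio was between 0.00224 and 0.00735 in the 8 libraries, lowest in cMoP replicate 2 and highest in MDP.

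Introns 12 (chr16:32623143-32623371) and 15 (chr16:32624827-32624983) of Tfrc had ratios of 0.194 and 0.144 in MDP, while introns 2, 3 and 9 had 0.0035, 0.0038 and 0.0042 in the same library. Retention in MDP was uneven along the gene: introns 5 and 6 and introns 12, 14 and 15 were high. Introns 17 and 18 were lower, at 0.0360 and 0.0183, though above the median of 0.00735 over all genes in that library. In monocytes these ratios rest on few reads: intron 6 had 15 and 18 spliced reads in the knockout and 19 and 19 in Ly6Chi, against 271 in MDP. Intron 8 of Alas1 (chr9:106236709-106238074) had 0.0369 and 0.0509 in the knockout, 0.0866 in MDP, 0.0999 and 0.0513 in the cMoP pair, 0.0712 and 0.0589 in the Ly6Chi pair and 0.0776 in Ly6Clo.

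**Figure D3:**
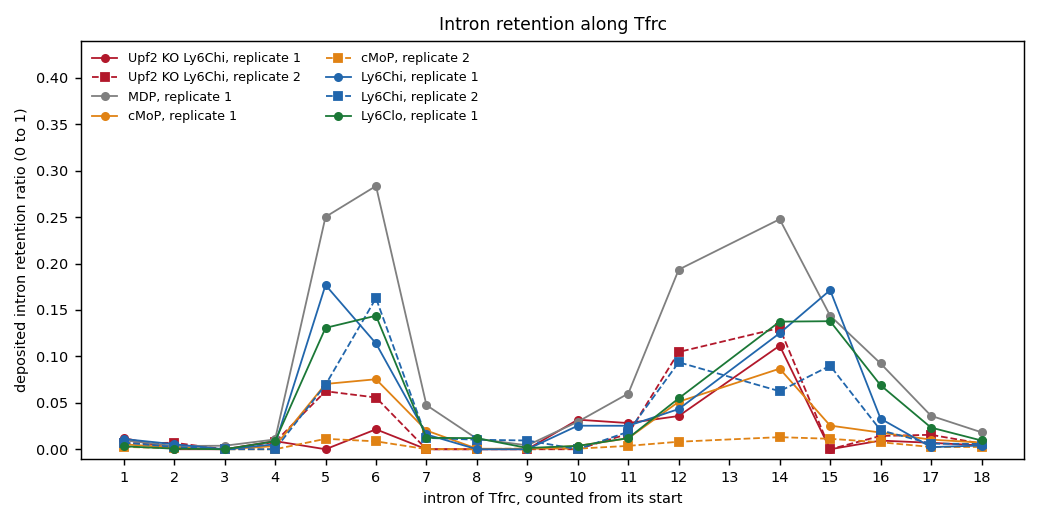
Deposited retention ratio of Tfrc introns, numbered from the start of the gene, in each library. MDP is highest at introns 5, 6, 12 and 14, reaching 0.284 at intron 6, and cMoP replicate 2 stays low along the whole gene.

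Summed over 17 introns of Tfrc, there were 5.23 and 6.73 boundary reads per 100 spliced reads in the knockout, 15.7 in MDP, 6.73 and 3.23 in the cMoP pair, 9.01 and 9.87 in the Ly6Chi pair and 10.4 in Ly6Clo. The same measure over all genes was 4.83 and 5.13 in the knockout, 5.08 in MDP, 4.82 and 3.15 in the cMoP pair, 5.61 and 5.75 in the Ly6Chi pair and 7.10 in Ly6Clo. With the depth filter applied to the compared groups only, a setting added after the data were seen, 13 Tfrc introns could be tested in cMoP against MDP. Introns entered that test partly through their MDP reads, and 0 of the 13 were called (edgeR, adjusted p = 0.558 to 0.886). The high MDP value rests on 1 library.

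**Figure D4:**
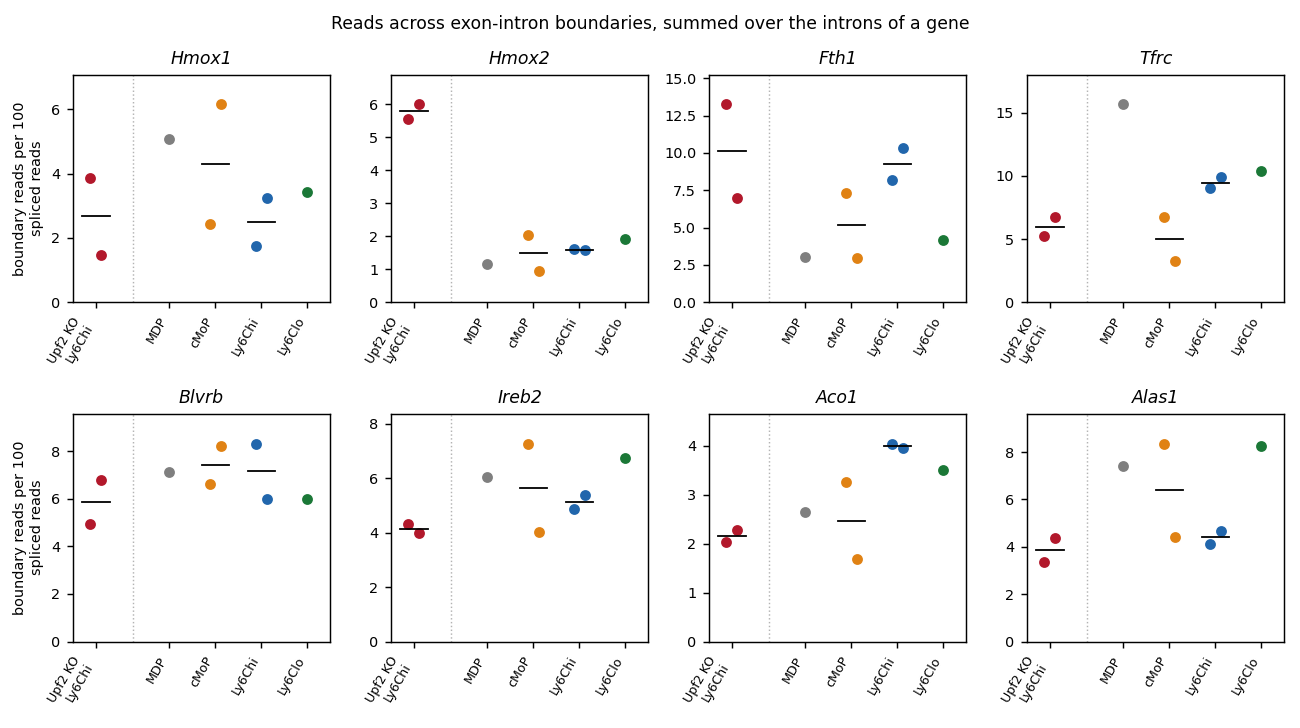
Boundary reads per 100 spliced reads in 8 of the genes, 1 point for each library, with a line at the mean of 2 libraries. Tfrc is highest in MDP, at 15.7, and Hmox2 stands at 5.56 and 6.00 in the knockout, above every other library.

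In the knockout the 3 introns with the smallest p were intron 16 of Aco1 (chr4:40188271-40189343), intron 18 of Ireb2 (chr9:54904238-54906568) and intron 13 of Aco1 (chr4:40183653-40184900). Their log2 changes were -2.34, -1.34 and -2.01, and each had an adjusted p of 0.716 (edgeR). Intron 16 of Aco1 had 4 and 2 boundary reads in the knockout against 13 and 13 in Ly6Chi. The median change over the 45 introns was -0.40 in the knockout, beside -0.32 over the 48132 introns.

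Hmox2 was the one gene of the 10 with far more boundary reads in both knockout libraries. It had 5.56 and 6.00 per 100 spliced reads in the knockout against 1.61 and 1.57 in Ly6Chi, and between 0.943 and 2.04 in the other groups. The knockout libraries did not overlap any other. The sum includes intron 5, also marked as overlapping a known exon, with 62 of 171 and 73 of 152 boundary reads in the knockout. All its introns are marked, in the intron list used for the knockout, as overlapping a gene on the opposite strand, Cdip1 (chr16:4750348-4790292), and so stayed out of the test. With marked introns kept, the 6 introns of Hmox2 had adjusted p-values of 0.282 to 0.719 (edgeR). In that setting 90 of 63820 introns of all genes were called in the knockout, 88 higher, against 1 of 48132 without marked introns. The median log2 change there was -0.32 over unmarked introns and -0.20 over those marked only as overlapping an antisense gene. It was 0.11 over introns with the same marks as intron 5. Cdip1 had 15 and 16.95 TPM in the knockout against 20.06 and 19.02 TPM in Ly6Chi. The knockout tables were made with another intron list than the other 6, and whether reads of the opposite strand were counted is not given in the sources used here.

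Hmox1 introns were well spliced. Its 4 introns had ratios of 0.0333 or less in every library, and 3.86 and 1.48 boundary reads per 100 spliced reads in the knockout and 1.74 and 3.23 in Ly6Chi, which overlapped. Median spliced reads over the introns of Hmox1, per 1000000 in the library, followed its TPM: 27.8 and 22.3 in the knockout, 0.498 in MDP, 0.569 and 0.449 in the cMoP pair, 15.6 and 17.8 in the Ly6Chi pair and 36.1 in Ly6Clo. With the added filter, 0 of its 4 introns were called in the knockout (edgeR, adjusted p = 0.662 to 1).

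Of the 103 listed introns, 10 had an exact join in under 2% of their spliced reads. The exon sequences of 2 of them are shown, 1 each of Alas1 and Blvrb, where a nearby annotated join shares 1 end with the listed intron, because the choice of site sets which bases reach the message. Both were read in GENCODE M21 (GRCm38), 5′ to 3′ on the strand of the gene, with capitals for exon bases that 1 of the 2 forms has in addition.

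Alas1-201, chr9 minus strand: attcaatggatgcagtgtgcccac

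Alas1-202, chr9 minus strand: attcaatggatgGAGcagtgtgcccac

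Blvrb-203, chr7 plus strand: acaagccttcc

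Blvrb-201, chr7 plus strand: acaagGTCGTGGCCTGCACCTCGGccttcc

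For Alas1, the join that leaves out 3 bases (intron chr9:106238237-106238642) made up 3 of 6544 spliced reads at the shared end over the 8 libraries, or 0.0458% (exact 95% interval 0.00946% to 0.134%). For Blvrb, the join that leaves out 19 bases (intron chr7:27459634-27462566) made up 18 of 1733, or 1.04% (0.617% to 1.64%). The intervals cover counting error only. At both sites the other spliced reads at the shared end joined elsewhere.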

How the data were processed

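Polyadenylated RNA of 8 libraries was prepared with a stranded kit and read as pairs of 100 bases, per the labels' protocols. Per the submitters' processing notes the tools included FastQC, Trimmomatic, STAR 2.5.2a and RSEM, with mm10 among the builds named. The deposited expression values are TPM, since each library sums to 1000000, although the table is named for FPKM. The authors' 8 intron tables give counts of spliced and boundary reads, the depth of coverage as a signal and the retention ratio as a fraction from 0 to 1. The steps that made these tables are not given in the sources used here.

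Genes that reached 1 TPM in 2 or more libraries were tested on log2(TPM + 1) with limma 3.58.1 (R 4.3.3), all 5 groups in 1 fit. Introns were tested with edgeR 4.0.16 on the deposited counts of boundary and spliced reads, with a library term, for unmarked introns with at least 20 reads in every library and 20 boundary reads in all. DESeq2 1.42.0 was an alternative. Both tests were also run on simulated data drawn around a common mean, with changes planted in Ly6Chi. Those data held no systematic difference between replicates such as that of cMoP, so they do not check its effect. Tables and figures were made in Python 3.11.15. A second entry named Fth1, listed at 0 in every library and annotated as a processed pseudogene in GENCODE M21, was left out. 2 genes of the haem transport list are not analysed here.

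Named are all 10 genes, the 5 introns with the highest mean ratio, the 3 with the smallest p in the knockout, the 3 genes most like Hmox1 and Tfrc, and up to 3 called genes per pathway list. Members, lists and tests were chosen with earlier results of these data known. Slc40a1, C1qb, Timd4, Cd5l, Mpo, Csf1r, Flt3, Cd34, Cdip1 and the Tfrc introns other than 5, 6, 12 and 15 were named after their values were seen.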

Additional observations from a re-analysis of the deposited data

How the results depend on the processing

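The number of the 10 genes called in Ly6Chi against cMoP was 8, and became 5 with no filter on low values and 4 with median centring. In Ly6Clo against Ly6Chi it was 1, and became 2 with the compared groups only. In cMoP against MDP it was 2 and became 0 with the compared groups only, and in Ly6Chi against MDP it was 5 and became 8. Calls over all 13126 genes moved the same way in these 3 comparisons, from 1708 to 3293, 508 to 0 and 5748 to 7702. In Ly6Chi against cMoP they went from 7288 to 7816 with median centring, and to 6553 of 25047 without the filter. They also changed with each library left out, so a shift in the counts here need not be particular to the 10 genes. Leaving out 1 library at a time gave 4 to 9 genes in Ly6Chi against cMoP, 0 to 4 in Ly6Clo against Ly6Chi, 0 to 3 in cMoP against MDP, 3 to 8 in Ly6Chi against MDP and 0 in the knockout. For single genes, 506 of the alternative values kept their side of the threshold, 42 lost and 22 gained a call, and 0 changed direction while called.

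The depth filter was rerun with each library left out, so 40 to 46 introns of these genes were tested there, not always the 45. Calls among them appeared in Ly6Chi against cMoP and in cMoP against MDP, and 0 in the other comparisons. The introns called, without cMoP replicate 1, were intron 16 of Aco1 and introns of Tfrc, Alas1 and Ireb2. With that library left out, the median log2 change over 45787 introns of all genes was 0.84 in Ly6Chi against cMoP and -0.84 in cMoP against MDP. With all libraries it was 0.38 and -0.39 over 48132 introns. That fit leaves 1 cMoP library, so its calls do not set the introns of these genes apart from all introns.

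With the replicate number as a block, 6 of the 10 genes were called in Ly6Chi against cMoP and 0 in the knockout. The differences between replicates 1 and 2 correlated at 0.06 between cMoP and Ly6Chi, -0.14 between cMoP and the knockout and -0.13 between Ly6Chi and the knockout. With a single difference per group, these values cannot tell whether libraries of the same number share an animal or a batch. Median centring turned the split of all calls in Ly6Chi against cMoP, 4235 higher and 3053 lower, to 3354 higher and 4462 lower, and in cMoP against MDP, 177 higher and 331 lower, to 408 higher and 295 lower.

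Retention of Hmox1, Hmox2 and ferritin introns was not tested under the filter on all libraries, nor was that of Tfrc introns other than 17 and 18. Over 17 introns Tfrc had 15 and 23 boundary reads in the knockout and 29 and 39 in Ly6Chi, and the size of a difference detectable at this depth was not measured.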
